A study of Mus musculus with 6 samples.

Results

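A set of 34 interferon-stimulated genes was followed through the differentiation of mouse brown preadipocytes that had or had not been pretreated with fibroblast growth factor 8 (FGF8). The genes were taken from a list of symbols, and all 34 were found among the 26264 genes of each count table. They are the ISG15 cycle, direct antiviral effectors, RNA-binding proteins and helicases, PARPs, TRIMs and a number of mitochondrial, nuclear and other interferon-induced genes. All 34 averaged 20 or more normalized counts across the 6 libraries, the minimum for the medians and for counts over all days. Counts of genes at least 2-fold apart asked for the same mean in the 2 libraries compared. The cells were immortalized preadipocytes from the brown adipose stromal vascular fraction of wild-type Bl6N mice, and the study's methods give SV40 large T antigen, delivered by retrovirus with puromycin selection, as the immortalizing agent, which both arms shared. In the treated arm, FGF8 was given at 5.5 nM for 48 h before adipogenic induction, and the other arm was untreated (vehicle in the study's methods). RNA was taken at the end of the pretreatment (day 0) and after differentiation to day 3 and day 9. The label of the last point gives day 7. Day 9 is the study's count from the end of the FGF treatment, which includes 7 days on differentiation medium. Each of the 6 combinations of treatment and day is 1 library, so there are no replicates, and the growth protocol in the labels describes white preadipocytes where the sample titles give brown ones.

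Type I interferons signal through the receptor IFNAR1 and IFNAR2 to transcription factors that bind interferon-stimulated response elements in promoters. The genes induced in this way block viral entry, RNA synthesis and assembly, sense foreign RNA, and attach ISG15, a ubiquitin-like protein, to other proteins. Fibroblasts and their relatives express many of them at a basal level without infection, and FGF8 acts through receptor tyrosine kinases of the FGFR family.

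The response element has at its core a pair of GAAA repeats separated by 2 bases, and promoters were searched for GAAA, 2 bases of any kind (NN) and GAAA again, on both strands (read as TTTC, NN and TTTC where it lies on the other strand), with overlapping matches counted. RefSeq promoter sequences, covering 250 bases before to 50 after the start of each gene (table build GRCm38.p6), were matched by symbol for 25 of the 34 genes. The motif was present in 7 of these 25 (28.0%) and in 1079 of 27025 genes with a promoter entry (3.99%). The 150 bases before the RefSeq start are shown for the 5 genes with a match in that stretch, with the motif in capitals. They were chosen because they hold the motif of the response element. The GENCODE annotation, used for gene positions elsewhere, places some starts differently. The stretches of Isg15, Trim30a and Ddx60 reach into their GENCODE gene spans, and the second Ddx60 match lies across its GENCODE start. Each stretch was located by its only exact match in GRCm39, and each is written 5′ to 3′ in the direction of its gene.
Isg15: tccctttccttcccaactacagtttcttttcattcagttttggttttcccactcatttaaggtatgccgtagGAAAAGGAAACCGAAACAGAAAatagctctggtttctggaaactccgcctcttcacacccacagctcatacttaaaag
Rsad2: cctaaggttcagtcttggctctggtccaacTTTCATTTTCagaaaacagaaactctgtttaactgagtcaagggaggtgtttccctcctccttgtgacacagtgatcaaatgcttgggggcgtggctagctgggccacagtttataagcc
Trim30a: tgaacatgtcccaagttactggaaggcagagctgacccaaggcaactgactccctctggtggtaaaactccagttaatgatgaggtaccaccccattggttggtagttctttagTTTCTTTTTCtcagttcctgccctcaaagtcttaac
Bst2: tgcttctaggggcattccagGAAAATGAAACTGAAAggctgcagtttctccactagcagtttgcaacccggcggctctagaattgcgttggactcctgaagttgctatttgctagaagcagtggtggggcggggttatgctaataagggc
Ddx60: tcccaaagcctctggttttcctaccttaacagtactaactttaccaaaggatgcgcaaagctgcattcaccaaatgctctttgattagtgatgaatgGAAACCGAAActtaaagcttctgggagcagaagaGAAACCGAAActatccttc
The Isg15 stretch lies at chr4:156285276-156285425 on the minus strand and holds 3 overlapping matches. That of Rsad2 lies at chr12:26506452-26506601 on the minus strand and that of Trim30a at chr7:104114401-104114550 on the minus strand, each with 1 match in the reverse orientation. Bst2 has 2 overlapping matches at chr8:71990117-71990266 on the minus strand, and Ddx60 has 2 separate ones at chr8:62380971-62381120 on the plus strand. The other 2 genes with a match, Trim21 and Eif2ak2, carry it after the start. A match is a run of letters in this window and does not show binding. No promoter entry was found for Mx1, Mx2, Usp18, Parp9, Parp14, Rtp4, Ifi27, Ifi27l2a and Tor3a.

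Directly after 48 h of FGF8 (day 0), 32 of the 34 genes stood lower by 2-fold or more in the FGF8 library than in the untreated one, against 10.8% of all genes tested, and none was at least 2-fold higher, against 7.27%. The median log2 difference was -1.99, where that of all genes was 0.04, and the values ran from -4.90 (Mx1) to 0.65 (Ifi27). The remaining gene, Trim25, stood just inside 2-fold at -0.99. At day 3 the list lay closer to the untreated library, with 9 genes at least 2-fold lower (12.1% of all genes) and none higher (3.8%), a median of -0.57 against 0.07, and a range from -1.45 (Sp100) to 0.76 (Ifi27). The day 9 pair had 15 of 33 genes lower by 2-fold or more (8.74%) and none higher (1.12%), with a median of -0.98 against 0.07 and a range from -2.38 (Mx1) to 0.29 (Helz2). Epsti1 had too few counts in the day 9 pair for the 2-fold count and was kept in the median. The 95% counting interval of the difference excluded 0 for all 34 genes at day 0, for 30 at day 3 and for all 34 at day 9. Such intervals cover counting error only, and with 1 library a condition they say nothing of the spread between cultures. In bulk RNA, fewer cells with a high level and less RNA in every cell cannot be told apart.

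**Figure D1:**
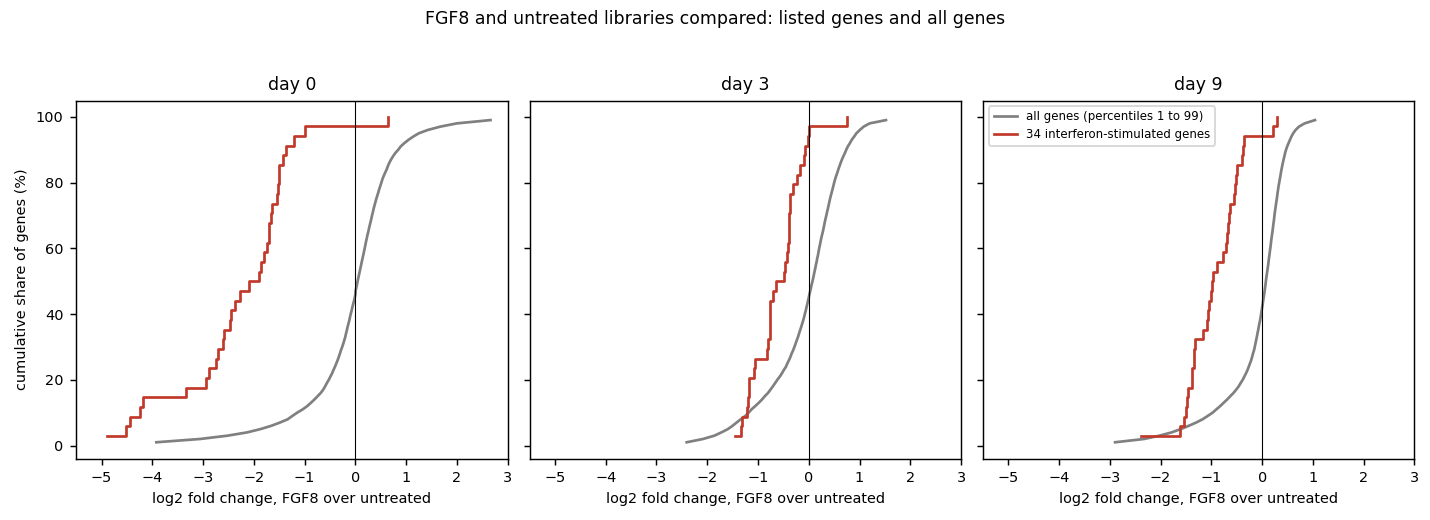
Cumulative share of genes (percent, vertical axis) against the log2 fold change of FGF8 over untreated (horizontal axis) at days 0, 3 and 9, for the 34 interferon-stimulated genes (red steps) and for all genes tested (grey, percentiles 1 to 99). The red curve has its median at -1.99, -0.57 and -0.98, and the grey one at 0.04, 0.07 and 0.07.

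The libraries held 16403254 to 38551551 counts, and the arms differed in more than these genes. Summed normalized counts of 6 preadipocyte markers were lower with FGF8 on each day (31021.8 to 132904 in untreated and 7141.7 to 33692.9 in FGF8 libraries). Thy1 alone went the other way on day 0 (log2 0.68), and it was lower with FGF8 on days 3 and 9. The sum of 6 adipocyte markers was 8661.9 without and 2369.7 with FGF8 on day 0, 357417.7 and 621663.7 on day 3, and 495373.6 and 572710.1 on day 9. The day 0 sum was almost all Lpl (8250.6 and 2025.3). Fabp4 was at 164.5 and 178.0 on that day, and Adipoq, Plin1 and Cidec had at most 3 counts. Brown adipocyte markers summed to 398.1 without and 1614.4 with FGF8 on day 0, 4664.5 and 12891.8 on day 3, and 125117 and 147523 on day 9. Most of the day 0 sum with FGF8 was Ucp1 (1327.6, and 0 without), while Ppargc1a and Dio2 were lower with FGF8 on that day. Of 12 macrophage markers, 6 stood above the floor in any library, their sums were 234.2 to 312.9 in untreated and 143.1 to 192.0 in FGF8 libraries, and Adgre1 and C1qa were at 0. Endothelial marker sums were 200.2 to 1630.4 and 35.1 to 73.0, from Kdr and Tek in the main, while Cldn5 had at most 1 count. Markers of lymphocytes and plasmacytoid dendritic cells summed to 2.9 to 7.7. The part of these differences in the levels of the interferon-stimulated genes was not tested.

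The ISG15 cycle consists of ISG15, its activating enzyme Uba7, the ligases Herc6 and Trim25 and the protease Usp18, which removes ISG15 and also damps signalling from IFNAR2. Isg15 (chr4:156283883-156285303 in GRCm39, minus strand) had 12847, 3090.2 and 2614 normalized counts in the untreated libraries of days 0, 3 and 9 and 2648, 1888 and 930.0 in the FGF8 libraries. The day 0 untreated library was the highest and the day 9 FGF8 library the lowest, and the groups overlapped only through the FGF8 value of day 0, which was just above the untreated value of day 9. The log2 differences were -2.28, -0.71 and -1.49 on days 0, 3 and 9, with a 95% counting interval of -2.35 to -2.21 at day 0. Uba7 had 3008, 2297 and 1838 normalized counts in the untreated libraries of days 0, 3 and 9 and 462, 1013 and 890.2 in the FGF8 libraries. All FGF8 values of Uba7 lay below all untreated ones, and it was the cycle's only member at least 2-fold lower on every day (-2.70, -1.18 and -1.04). Usp18 had 9189, 2624 and 2394 normalized counts in the untreated libraries of days 0, 3 and 9 and 3236, 1940.2 and 1188 in the FGF8 libraries, with differences of -1.50, -0.44 and -1.01. Its day 0 FGF8 level was above the untreated levels of days 3 and 9. Herc6, the main ISG15 ligase of mouse cells, had 3002, 1480.2 and 1931 normalized counts in the untreated libraries of days 0, 3 and 9 and 894, 870.4 and 1314 in the FGF8 libraries. It differed by -1.75, -0.77 and -0.56, and its FGF8 values also lay below all untreated ones. Trim25, a ubiquitin ligase of the RIG-I pathway that can also transfer ISG15, had 7507, 5249 and 4336 normalized counts in the untreated libraries of days 0, 3 and 9 and 3780.5, 4980.2 and 2765 in the FGF8 libraries. Its groups were nearly equal at day 3 (-0.076), and at day 0 its difference (-0.99) was the smallest of the cycle.

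Among the antiviral effectors, all 9 were at least 2-fold lower at day 0, with a median of -2.95, and 2 of 9 at day 3 and 6 of 9 at day 9. Mx1 and Mx2 encode dynamin-like GTPases that trap viral nucleocapsids, and the Mx1 allele of C57BL/6 mice makes no functional protein. Mx1 (chr16:97248235-97264107, minus strand) had 2243, 1056 and 547 normalized counts in the untreated libraries of days 0, 3 and 9 and 74.3, 469 and 104 in the FGF8 libraries. Its day 0 FGF8 library was the lowest of the 6, 29.8-fold below the untreated one (log2 -4.90, 95% counting interval -5.32 to -4.54), and all FGF8 values lay below all untreated ones. Mx2, whose annotated span begins 72.4 kb from that of Mx1, had 4194, 1412 and 956 normalized counts in the untreated libraries of days 0, 3 and 9 and 571, 1001 and 449.6 in the FGF8 libraries, with differences of -2.88, -0.49 and -1.09. Its FGF8 library of day 3 was above the untreated library of day 9, so its groups overlapped.

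Rsad2 encodes viperin, which makes a chain-terminating nucleotide, and Cmpk2, its divergent neighbour 12.8 kb away on chromosome 12, a mitochondrial nucleotide kinase. Rsad2 (chr12:26492745-26506451, minus strand) had 4619.6, 2133 and 3340.5 normalized counts in the untreated libraries of days 0, 3 and 9 and 252, 1259 and 1490.1 in the FGF8 libraries. Cmpk2 (chr12:26519203-26529836, plus strand) had 2587, 1144 and 713 normalized counts in the untreated libraries of days 0, 3 and 9 and 136, 658 and 230.1 in the FGF8 libraries. Both were lowest in the day 0 FGF8 library, and for both all FGF8 values lay below all untreated ones. The day 0 differences of the pair were close (-4.19 and -4.24), as were those of day 3 (-0.76 and -0.80). At day 9 they were -1.16 for Rsad2 and -1.63 for Cmpk2.

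Bst2 (tetherin), which holds budding virions at the cell surface, had 22228, 6976 and 5407 normalized counts in the untreated libraries of days 0, 3 and 9 and 2884, 5323 and 2154 in the FGF8 libraries. Per kilobase of exon it was the most abundant member in the untreated day 0 library, at 18310.0 normalized counts per kb, followed by Isg15 at 16430.0. The Isg15 counts carry a limit too, since 16.5% of its 100-base transcript stretches also occur in Gm46878, annotated on the opposite strand. The differences of Bst2 were -2.95, -0.39 and -1.33, and its groups did not overlap. Ifi44, a cytoplasmic protein with antiviral activity, had 20662, 2377 and 2354 normalized counts in the untreated libraries of days 0, 3 and 9 and 3772, 1138 and 846 in the FGF8 libraries. It was at least 2-fold lower on every day, and the untreated level itself stood 8.69-fold lower on day 3 than on day 0. Isg20, an exonuclease for single-stranded RNA, had 1579, 208 and 295 normalized counts in the untreated libraries of days 0, 3 and 9 and 155, 122 and 227 in the FGF8 libraries. Its differences ran -3.34, -0.76 and -0.38 over the days, and its groups overlapped only in that the FGF8 value of day 9 was above the untreated value of day 3. Samd9l, a restriction factor of poxviruses, had 16772, 4678 and 4179.5 normalized counts in the untreated libraries of days 0, 3 and 9 and 3928, 2755 and 3267 in the FGF8 libraries. Its groups did not overlap, and its differences were -2.09, -0.76 and -0.35. Rtp4, a chaperone of membrane receptors, had 8124, 4421 and 3979 normalized counts in the untreated libraries of days 0, 3 and 9 and 2496, 4431 and 2045 in the FGF8 libraries. The day 3 levels of Rtp4 could not be separated by counting error (log2 0.003, 95% counting interval -0.057 to 0.063), and 25% of its 100-base transcript stretches also occur in another annotated gene, so its counts are uncertain.

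**Figure D2:**
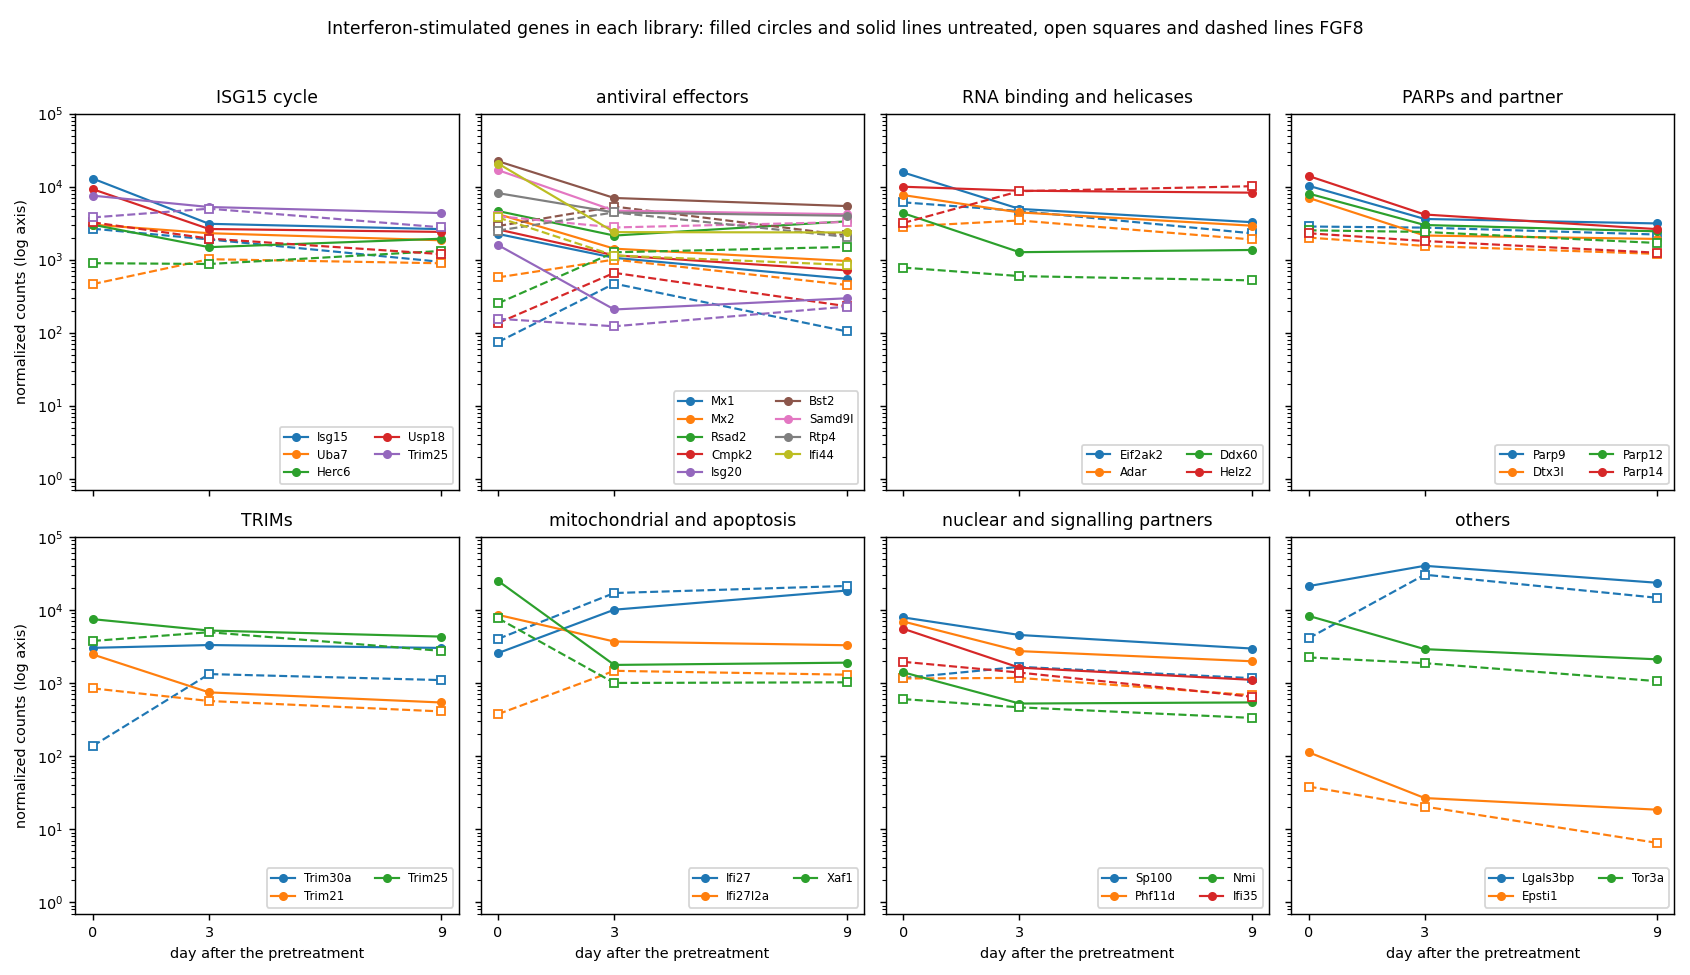
Normalized counts (vertical, log axis) of each gene by day after the pretreatment (horizontal axis), 1 point a library, with untreated libraries as filled circles on solid lines and FGF8 libraries as open squares on dashed lines. In 30 of 34 genes the untreated day 0 library is the highest point, and the FGF8 lines of Mx1, Rsad2, Cmpk2, Trim30a and Ifi27l2a start at their lowest value and are higher at day 3.

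The RNA-binding group holds Eif2ak2 (PKR), a kinase that stops translation on double-stranded RNA, Adar, which edits adenosine to inosine in such RNA, Ddx60, a helicase of RNA sensing, and Helz2, a helicase known as a co-activator of PPAR receptors. All 4 were lower by 2-fold or more on day 0, and Ddx60 alone of them at days 3 and 9. Ddx60 had 4317, 1264 and 1354 normalized counts in the untreated libraries of days 0, 3 and 9 and 777, 594 and 519.5 in the FGF8 libraries, and its groups did not overlap. Eif2ak2 had 15593, 4944 and 3255 normalized counts in the untreated libraries of days 0, 3 and 9 and 6079.8, 4629 and 2292 in the FGF8 libraries. Its differences ran -1.36, -0.095 and -0.51 over the days. Adar had 7641, 4424 and 2912 normalized counts in the untreated libraries of days 0, 3 and 9 and 2833, 3435 and 1887 in the FGF8 libraries. Its differences were -1.43, -0.36 and -0.63, and its FGF8 value of day 3 was above the untreated value of day 9.

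Helz2 (chr2:180869408-180883841, minus strand) had 9944, 8779 and 8250.4 normalized counts in the untreated libraries of days 0, 3 and 9 and 3174, 8641 and 10109 in the FGF8 libraries. The untreated libraries stayed within a narrow band, the FGF8 library of day 0 lay far below it, and the FGF8 library of day 9 was the highest of the 6. The difference of day 0 was -1.65 (95% counting interval -1.72 to -1.58), that of day 3 -0.023 (-0.066 to 0.02) and that of day 9 0.29 (0.26 to 0.33). Helz2 and Ifi27 were the only members above the untreated library at day 9.

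Parp9, Parp12 and Parp14 are ADP-ribosyltransferases of the interferon response, and Dtx3l is the ubiquitin ligase that works as a complex with Parp9. Parp9 and Dtx3l lie head to head on chromosome 16 and share 458 exonic bases on opposite strands, so part of their reads could be exchanged if strand was not used in counting, which is not given in the sources used here. Parp9 had 10267, 3599 and 3127 normalized counts in the untreated libraries of days 0, 3 and 9 and 2839.5, 2742 and 2205 in the FGF8 libraries. Dtx3l had 7008, 2134 and 1919 normalized counts in the untreated libraries of days 0, 3 and 9 and 2004, 1539 and 1197 in the FGF8 libraries. The pair kept similar differences, -1.85, -0.39 and -0.50 for Parp9 and -1.81, -0.47 and -0.68 for Dtx3l. Parp14, 54.9 kb away from that pair, had 13966, 4145 and 2614 normalized counts in the untreated libraries of days 0, 3 and 9 and 2294, 1796 and 1243 in the FGF8 libraries. It was the only PARP of the list at least 2-fold lower on every day (-2.60, -1.21 and -1.07), and its groups did not overlap. Parp12, a mono-ADP-ribosyltransferase, had 8023, 2978 and 2438 normalized counts in the untreated libraries of days 0, 3 and 9 and 2518, 2391 and 1689 in the FGF8 libraries. Its groups overlapped, since the FGF8 value of day 0 was above the untreated value of day 9, and its differences were -1.67, -0.32 and -0.53. Among 12 other PARP genes, 3 were lower by 2-fold or more on day 0 (Parp3, Parp10 and Parp11), against 10.8% of all genes. At days 3 and 9 it was 1 (Parp8), against 12.1% and 8.74% of all genes, so the later counts do not stand out. The medians of these PARP genes were -0.20, 0.002 and 0.09 on days 0, 3 and 9.

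The TRIM proteins are ubiquitin ligases with a RING domain. Trim30a, a mouse-specific regulator of innate signalling and retroviral restriction, lies at chr7:104058232-104114407 on the minus strand and had 3042, 3323 and 3032 normalized counts in the untreated libraries of days 0, 3 and 9 and 138, 1330.2 and 1101 in the FGF8 libraries. Its untreated libraries differed little from each other, while its FGF8 library of day 0 was 21.9-fold below the untreated one and every FGF8 value was below every untreated one (-4.45, -1.32 and -1.46). In Trim30a, 13.3% of the 100-base transcript stretches recur in other annotated genes. Trim21, an intracellular antibody receptor, had 2466, 747 and 543 normalized counts in the untreated libraries of days 0, 3 and 9 and 848, 569 and 409.7 in the FGF8 libraries. Its FGF8 value at day 0 was above the untreated values of days 3 and 9, and its differences were -1.54, -0.39 and -0.41. Of 14 other TRIM genes tested, 5 were at least 2-fold lower at day 0 (Trim5, Trim12c, Trim14, Trim30d and Trim34a), against 10.8% of all genes. It was 4 of 15 at day 3 (12.1%) and 1 of 15 at day 9 (Trim30d, 8.74%), and the day 9 count does not stand out. None was higher (7.27%, 3.8% and 1.12% of all genes on days 0, 3 and 9).

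Ifi27 and Ifi27l2a belong to 1 family of small hydrophobic proteins of mitochondria and the nuclear envelope, and their genes overlap on opposite strands of chromosome 12 with 163 exonic bases in common, so the limit of strand holds for them too. Ifi27l2a (chr12:103399975-103409950, minus strand) had 8599, 3710.0 and 3303 normalized counts in the untreated libraries of days 0, 3 and 9 and 376, 1474 and 1305 in the FGF8 libraries. Its FGF8 library of day 0 was 22.8-fold below the untreated one (log2 -4.51, 95% counting interval -4.69 to -4.34), and all FGF8 values lay below all untreated ones. Ifi27 (chr12:103392254-103407799, plus strand) had 2579, 10128 and 18509 normalized counts in the untreated libraries of days 0, 3 and 9 and 4038, 17128 and 21411 in the FGF8 libraries. Opposite to its neighbour, it was higher in the FGF8 library on each day (0.65, 0.76 and 0.21) and higher on day 9 than on day 0 in both arms. Per kilobase of exon, Ifi27 ranked 29 of 34 in the untreated day 0 library and 1 of 34 in the FGF8 library of day 9. Xaf1, a binding partner of the apoptosis inhibitor XIAP, had 25113, 1775 and 1906 normalized counts in the untreated libraries of days 0, 3 and 9 and 7724, 1005 and 1026 in the FGF8 libraries. In the untreated arm its log2 changes from day 0, -3.82 to day 3 and -3.72 to day 9, were the widest of the list, and its FGF8 level of day 0 was above the untreated levels of the later days.

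Sp100, a component of PML nuclear bodies, had 7935, 4563 and 2977 normalized counts in the untreated libraries of days 0, 3 and 9 and 1175, 1672 and 1169.8 in the FGF8 libraries. All of its FGF8 values lay below all untreated ones, with differences of -2.75, -1.45 and -1.35. Phf11d, a PHD-finger protein, had 6976, 2744 and 1992 normalized counts in the untreated libraries of days 0, 3 and 9 and 1157, 1179 and 683 in the FGF8 libraries. It too was separated by treatment in all libraries, with differences of -2.59, -1.22 and -1.54. Nmi and Ifi35 form a heterodimer that takes part in innate signalling. Nmi had 1406, 526 and 544 normalized counts in the untreated libraries of days 0, 3 and 9 and 604, 466 and 334 in the FGF8 libraries. Its differences were -1.22, -0.17 and -0.70, and at day 3 the interval included 0 (-0.35 to 0.007). Ifi35 had 5549, 1628 and 1109.5 normalized counts in the untreated libraries of days 0, 3 and 9 and 1959, 1395 and 651 in the FGF8 libraries, with differences of -1.50, -0.22 and -0.77. In both genes the FGF8 value of day 0 was above the untreated values of days 3 and 9.

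Lgals3bp, a secreted galectin-binding glycoprotein, had 21293, 40404 and 23684 normalized counts in the untreated libraries of days 0, 3 and 9 and 4115, 30525 and 14753 in the FGF8 libraries. It was the most abundant member per kilobase of exon in the untreated libraries of days 3 and 9, and its differences ran -2.37, -0.40 and -0.68 over the days. Tor3a, a torsin ATPase of the endoplasmic reticulum, had 8346, 2921 and 2119 normalized counts in the untreated libraries of days 0, 3 and 9 and 2248, 1876 and 1065 in the FGF8 libraries. Its FGF8 value of day 0 was above the untreated value of day 9, and its differences were -1.89, -0.64 and -0.99. Epsti1, first described as an epithelial-stromal interaction gene, was the least abundant member, with 113, 26.7 and 18.5 normalized counts in the untreated libraries of days 0, 3 and 9 and 38.4, 20.4 and 6.5 in the FGF8 libraries. Its counting intervals were wide, -1.25 to 0.49 at day 3 and -2.86 to -0.32 at day 9.

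**Figure D3:**
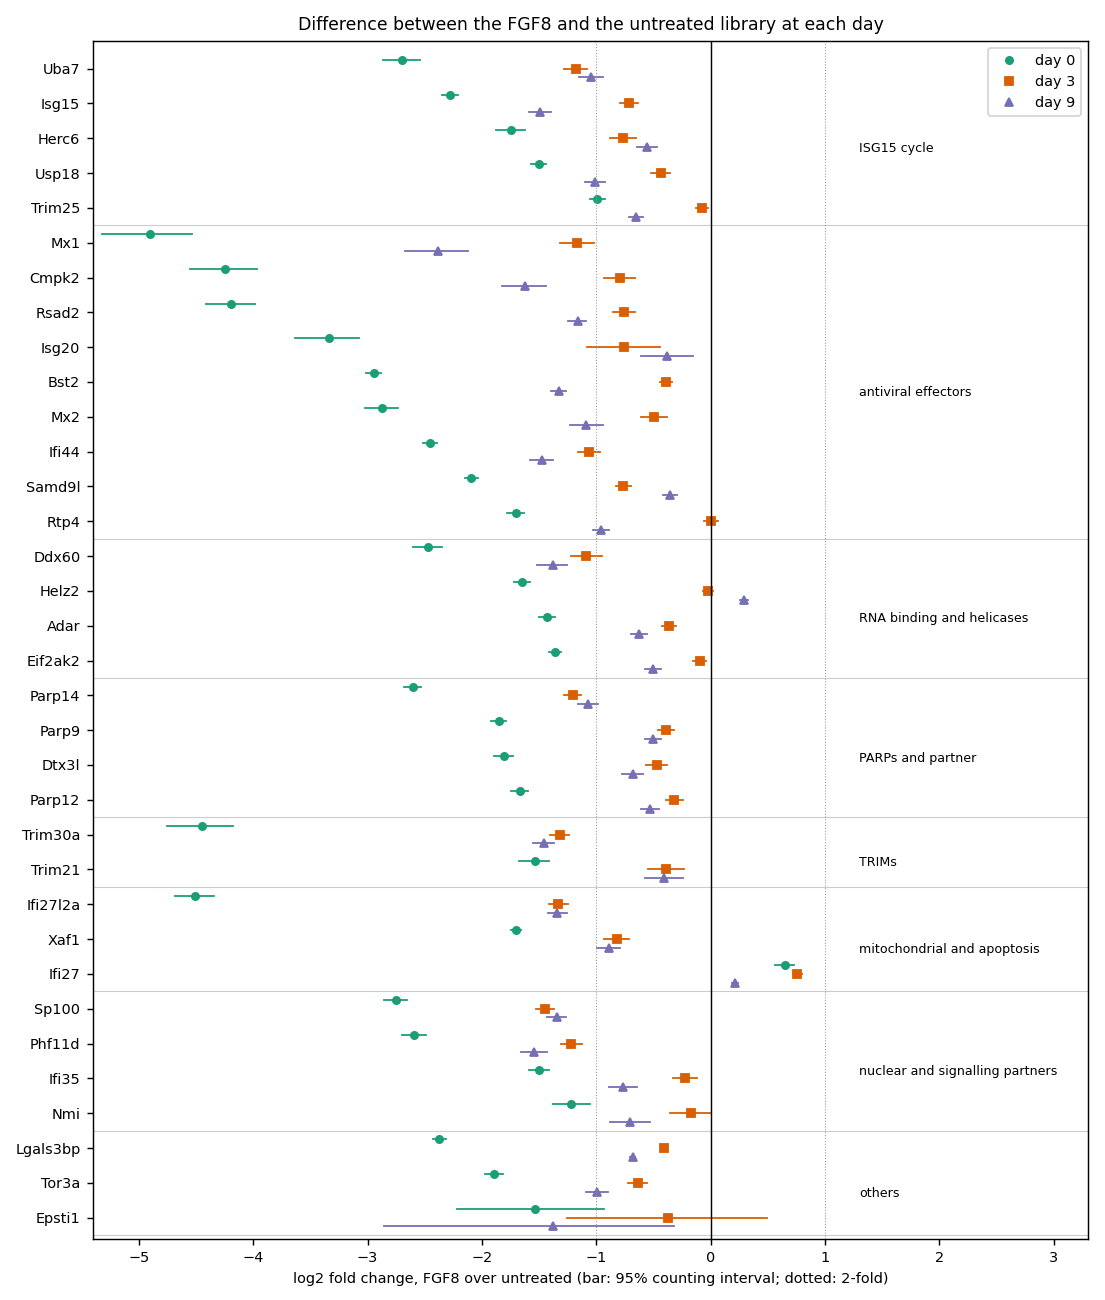
Log2 fold change of FGF8 over untreated (horizontal axis) for each of the 34 genes (rows, by function) at day 0 (circles), day 3 (squares) and day 9 (triangles), with 95% counting intervals as bars and 2-fold differences as dotted lines; Trim25 is drawn once, in the ISG15 cycle. Day 0 points lie farthest left for 33 genes, and Ifi27 lies right of 0 on each day.

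The difference between the arms was farthest from 0 at day 0 in 33 of 34 genes (44.1% of all genes), and closest to 0 at day 3 in 27 (24.7%). From day 0 to day 3 the difference moved upward beyond its counting interval in all 34 genes. From day 3 to day 9 it moved down again in 23 and up in 5 (Herc6, Isg20, Samd9l, Helz2 and Parp14). The day 9 difference was still above that of day 0 beyond counting error in 32 genes. In 31 genes the FGF8 library was the lower one on all 3 days (21.6% of all genes), and in 9 it was at least 2-fold lower each time (3.79%), namely Uba7, Mx1, Ifi44, Ddx60, Parp14, Trim30a, Ifi27l2a, Sp100 and Phf11d. All FGF8 libraries lay below all untreated libraries in 14 genes (5.36% of all genes). Because 1 library stands for each combination, an interaction of treatment and day leaves no residual degrees of freedom and could not be tested.

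In untreated cells, 25 genes were at least 2-fold lower on day 3 than on day 0 (15.5% of all genes) and 1, Ifi27, was higher (19.5%), with a median of -1.47. Between days 3 and 9 none passed 2-fold in either direction in this arm (4.42% and 8.77% of all genes), with a median of -0.26. In FGF8-pretreated cells, 2 genes were at least 2-fold lower on day 3 than on day 0 (22%) and 9 were higher (24.1%), with a median of -0.04, and then 9 of 33 were at least 2-fold lower on day 9 than on day 3 (5.4%) and none higher (8.16%). Over the whole interval from day 0 to day 9, 26 genes were at least 2-fold lower in untreated cells (19.5%), with 1 higher (23.7%) and a median of -1.83. In FGF8-pretreated cells 9 were lower (22.6%) and 6 higher (26.1%), with a median of -0.44. The untreated level was lower and the FGF8 level higher on day 3 than on day 0 in 13 genes (7.7%), and on day 9 than on day 0 in 9 (7.17%). The 6 genes at least 2-fold higher by day 9 after FGF8 were Rsad2, Helz2, Trim30a, Ifi27, Ifi27l2a and Lgals3bp.

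Mx1, Rsad2, Cmpk2 and Ifi27l2a were at least 2-fold lower on day 3 than on day 0 in untreated cells and at least 2-fold higher in FGF8-pretreated cells, a course that 0.256% of all genes shared. In Rsad2 these changes were -1.11 and 2.31, and the difference between them was 3.43 (95% counting interval 3.20 to 3.66). For Mx1 they were -1.09 and 2.64, and by day 9 the FGF8 level stood at -2.16 on the log2 scale relative to day 3. Trim30a took another course, with untreated changes of 0.13 to day 3 and -0.005 to day 9 and FGF8 changes of 3.26 and 2.98. In 22 genes the FGF8 library of day 0 was below the untreated library of day 9 (49.6% of all genes). The untreated day 0 library was the highest of the 6 in 30 genes (19.9%), and the lowest was the FGF8 library of day 9 in 21 genes (17.4%) and that of day 0 in 8 (22.4%).

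Across the 34 genes the differences of separate days ran in parallel, as a description over libraries that the genes share. Pearson's r was 0.75 between days 0 and 3, 0.70 between days 0 and 9 and 0.68 between days 3 and 9, with Spearman's rho of 0.78, 0.61 and 0.62. Genes are not independent replicates.

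**Figure D4:**
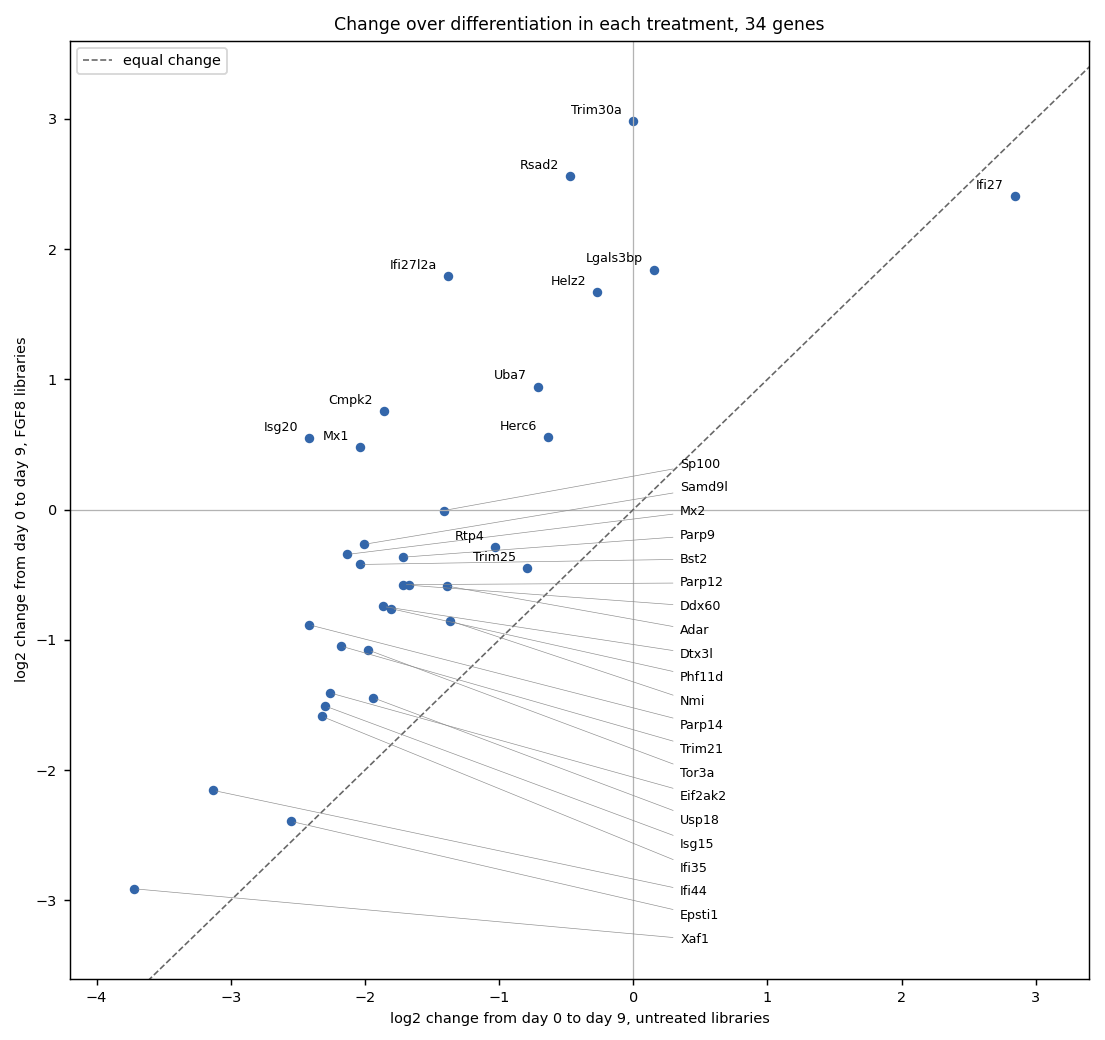
Log2 change from day 0 to day 9 in the FGF8 libraries (vertical axis) against that in the untreated libraries (horizontal axis), 1 point a gene, with the dashed line marking equal change. Ifi27 lies under the line and the other 33 genes lie above it, with Trim30a, Rsad2 and Ifi27l2a among the farthest from it.

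Treatment was also tested with the 3 days as blocks, so that the days stand in for replicates and 2 residual degrees of freedom remain. By edgeR (quasi-likelihood test, Benjamini-Hochberg adjusted over 14569 genes), 0 of the 34 genes were called lower (1.25% of all genes) and 0 higher (0.0206%). At an unadjusted p under 0.05 in edgeR, 30 were lower (12.9% of all genes) and 1, Ifi27, was higher (10.3%). At an adjusted p under 0.05, DESeq2 called 22 lower (8.85%) and 0 higher (3.42%). With no filter on low counts edgeR called Ifi44, Ddx60, Sp100 and Phf11d lower, 4 of 34 (2.05%). In edgeR's quasi-likelihood test the smallest adjusted values belonged to Phf11d (log2 -1.80, SE 0.295, adjusted p = 0.0704, range over the alternative fits 1.58e-06 to 1), lower in 3 of 3 pairs. Sp100 (log2 -1.86, SE 0.324, adjusted p = 0.0758, range over the alternative fits 2.18e-06 to 0.742) and Ifi44 (log2 -1.68, SE 0.297, adjusted p = 0.0782, range over the alternative fits 6.89e-06 to 1) followed in the same edgeR fit, both lower in 3 of 3 pairs.

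The same test was run with each day left out in turn. Each of these fits keeps only 1 residual degree of freedom, so its p-values lean on variance pooled over genes. Without day 0 it called 20 genes lower (11.6% of all genes) and 0 higher (3.96%, with 0 also at an unadjusted p under 0.05), among them Trim30a (log2 -1.42, adjusted p = 0.00108, range over all fits 0.000872 to 1), Sp100 (log2 -1.43, adjusted p = 0.00112) and Phf11d (log2 -1.41, adjusted p = 0.00122) by the same edgeR quasi-likelihood test (Benjamini-Hochberg adjusted), each lower in 2 of 2 pairs. By function these were 4 of 5 genes of the ISG15 cycle, 6 of 9 antiviral effectors, 2 of 4 in the RNA-binding group, 2 of 4 of the PARPs and Dtx3l, 1 of 3 TRIMs, 2 of 3 of the mitochondrial and apoptosis group, 2 of 4 nuclear and signalling genes and 1 of 3 others. Without day 3 or without day 9 it called 0, with 30 (8.23% of all genes) and 14 (8.71%) lower at an unadjusted p under 0.05, and in those fits no gene of the whole table was called. For the effect of day, 11 genes were called by edgeR (32.4%, against 52% of all genes) and 20 by DESeq2 (56.7%). Of the 11, Ifi27 rose from day 0 to day 9 and 10 fell, namely Isg15, Usp18, Ifi44, Eif2ak2, Trim21, Xaf1, Nmi, Ifi35, Epsti1 and Tor3a.

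Other genes of the pathway were looked at as a background for the list. Among all genes tested, 10.8%, 12.1% and 8.74% were lower by 2-fold or more on days 0, 3 and 9, and 7.27%, 3.8% and 1.12% higher. Of the upstream genes, from interferon and its receptor to its transcription factors and SOCS inhibitors, 6 of 14 tested were lower by 2-fold or more on day 0. On each later day it was 4 of 13, and none was higher. Ifnb1, which encodes interferon beta, was counted 28 times without and 0 times with FGF8 on day 0, at least 10.7-fold lower with the floor set at 3 counts per library. On day 3 its counts were 2 without and 1 with FGF8, and on day 9 they were 10 and 2. Irf7, the factor that amplifies interferon production, differed by -2.71, -1.30 and -2.01. Stat2, a transcription factor activated by the receptor, differed by -2.16, -0.89 and -0.97. Ifnar2, a receptor chain, was lower with FGF8 than without in the test with days as blocks (log2 -1.03, adjusted p = 0.0499 in the edgeR quasi-likelihood fit, Benjamini-Hochberg adjusted, range over the alternative fits 5.65e-06 to 0.742, lower in 3 of 3 pairs) and was the only upstream gene called, a call that some of those fits lost. Among 7 further enzymes of ISG15 and ubiquitin transfer, Ube2l6, the conjugating enzyme for ISG15, was the only one at least 2-fold lower, at days 0 and 3 (-2.43, -1.13 and -0.93). In other interferon-induced families (IFIT, OAS, IFITM, RIG-I-like receptors, GBPs, Irgm1 and Zbp1), 18 of 18 genes were lower by 2-fold or more on day 0 (10.8% of all genes). It was 10 on day 3 (12.1%) and 13 by day 9 (8.74%), and none was higher. The edgeR quasi-likelihood fit over the days (Benjamini-Hochberg adjusted) called Ifit2 (log2 -1.58, adjusted p = 0.0429), Ifitm3 (-1.49, 0.0499) and Zbp1 (-2.48, 0.0479) lower, each in 3 of 3 pairs. In some alternative fits these calls were lost, with adjusted p up to 1, 1 and 0.718.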

How the data were processed

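RNA from 6 samples was sequenced with a stranded mRNA kit, paired-end. The authors deposited 1 table a library with raw read counts per gene, not normalized. The submitters' processing notes name Trim Galore, HISAT2 and the build mm39. The study's methods name featureCounts as the counter. Its strand setting, the gene annotation and the treatment of reads with several positions are not given in the sources used here, so overlapping and repeated genes are uncertain. At least 10% of the 100-base stretches of 6 members (Isg15, Herc6, Rtp4, Adar, Trim30a and Tor3a) recur in another gene.

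From these counts, size factors were computed with DESeq2 1.42.0, and a normalized count is a count divided by its size factor. Differences are log2 ratios of normalized counts with a pseudocount of 1, for genes with a mean of at least 20 over the pair or pairs compared, with 95% counting intervals. Treatment was tested over days with edgeR 4.0.16 (quasi-likelihood, day as block, threshold 0.05 after Benjamini-Hochberg adjustment over all genes), which was tested on simulated data. There each changed gene changed by the same factor on every day, so the simulation is no check on changes that differ between days. Libraries held 16403254 to 38551551 counts. Gene positions and exonic lengths came from GENCODE annotation on GRCm39. The rule asked for all library values of the members with the largest and smallest changes of each functional class, and they are given for all 34. The members, the pathway lists and the tests were chosen with earlier results of these data known. The fit without day 0 was among the alternatives listed for leaving out each day in turn. Alternatives changed the scaling, the pseudocount, the filters, the fold, the test and the libraries.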

Additional observations from a re-analysis of the deposited data

Results flagged for a closer look

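Helz2, the helicase known as a co-activator of PPAR receptors, was picked out because its difference between the arms pointed in opposite directions on the first and the last day. The log2 difference of FGF8 over untreated was -1.65 at day 0 and 0.29 at day 9, with 1 library a condition, and over other scalings the day 9 value ran from 0.23 to 0.33. Counting error alone separates them, but the difference between the days was not tested against the spread of cultures.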

How the results depend on the processing

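Direction was kept in all medians under every alternative. Mx1, Mx2, Ifi27, Ifi27l2a, Trim30a and Phf11d, 6 members of families with related genes, were left out in 1 alternative. This gave a median of -1.83 on day 0, of -0.83 on day 9 and of -0.578 from day 0 to day 9 with FGF8. It left 5 genes lower at day 3, and 3 higher (FGF8) and 0 higher (untreated) from day 0 to day 9. The 6 were set by family and not by shared sequence. Of the members with at least 10% of their 100-base stretches in another gene, only Trim30a was among them. The alternative is thus no check on reads shared by the others. The FGF8 median from day 0 to day 9 was -0.346 with TMM and -0.713 with total counts, and the untreated one -2.016 with total counts, a scaling that moved all genes by -0.276 and -0.183 in these comparisons and by -0.107 at day 3. Under it the day 3 difference of Rtp4 went from 0.003 to -0.10, below its counting interval of -0.057 to 0.063. At 1.5-fold, 17 genes were lower on day 3, 24 on day 9 and 14 from day 0 to day 9 with FGF8, and 1 was higher at days 0 and 3. The 4-fold rule left 17, 0 and 1 lower on days 0, 3 and 9, and from day 0 to day 9 there were 3 lower and 3 higher with FGF8 and 13 lower untreated. Genes called lower over the days numbered 0 in the edgeR fit with or without the days as blocks, 22 with DESeq2, 4 without a filter and 20 without day 0. Genes called for day numbered 20 with DESeq2, 2 without a treatment term and 3 without day 9. The cause was not tested. Among the day differences of single genes, 469 values moved by less than their error and 41 by more. Among the medians and counts, 129 values held and the 26 given above moved.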
